A study of Mus musculus with 5 samples.

Results

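The 36 genes described here are 31 metabolic enzymes and enzyme regulators of glycolysis, pyruvate oxidation and the pentose phosphate pathway, and 5 hypoxia regulators, out of 20365 gene names in the tables. They were taken by name from a list of genes of these pathways. SLAMseq was run on cardiac fibroblasts (CF) of adult, healthy, male C57Bl/6J wildtype mice, freed from the heart by collagenase perfusion, depleted of CD31+ and CD45+ cells and grown to confluency in high-glucose medium with serum. 3 libraries came from CF kept for 12 h with 0.1 mM 4-thiouridine (S4U), called labeled, and 2 from CF kept for 12 h without S4U, called unlabeled. All 5 libraries share the genotype, the culture and the library kit, so S4U is the only difference between the groups that the labels give. These are cultured cells on plastic with glucose in excess and no low-oxygen arm, which limits them as a model of either pathway in the heart.

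S4U is a uridine analog that cells build into new RNA, and alkylation makes the sequencer call a C at such a T. The T>C conversion rate, given as conversions per covered T, therefore rises with the part of a transcript made during labeling. Glycolysis splits glucose into pyruvate in the cytosol. Pyruvate is then either reduced to lactate by lactate dehydrogenase or taken into the mitochondrion and oxidized by the pyruvate dehydrogenase complex, which the pyruvate dehydrogenase kinases switch off. The pentose phosphate pathway leaves glycolysis at glucose 6-phosphate and makes NADPH and ribose phosphate. HIF-1α, the oxygen-labile subunit of the hypoxia-inducible factor, is marked for degradation by prolyl hydroxylases when oxygen is present, and many glycolytic genes are among its known targets. Fibroblasts in culture are known to run glycolysis at a high rate even with oxygen.

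The level of a gene is given in CPM, its reads scaled to the reads counted on 1 3′ UTR interval of each gene. In 3′ end libraries a transcript gives reads near its end only, so levels of different genes are compared without scaling by length. Labeled replicates 1, 2 and 3 had 1576048, 1194971 and 506045 counted reads and the unlabeled libraries 1843033 and 996143, so labeled replicate 3 carries the least precision. Of the 9 fibroblast markers, 9 had reads in every library, with a summed level between 31190 and 42160 CPM. The cardiomyocyte markers summed to between 0.635 and 8.03 CPM with Ryr2 at 0, the leukocyte markers to between 54.6 and 104 CPM, and the endothelial markers to between 93.9 and 200 CPM although CD31+ and CD45+ cells had been depleted. The mural markers, almost all of them reads of Acta2, which activated fibroblasts also express, summed to between 360 and 1632 CPM. The libraries numbered 1 stood apart from the rest, as described below, and the p-values measure only the spread between these 5 libraries.

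Together the 36 genes held 5894, 5717 and 2232 reads in the labeled libraries and 7761 and 4878 in the unlabeled libraries, or between 0.374% and 0.490% of the counted reads. Of the 36, 32 had reads and a covered T in every library. The exceptions were Aldoc, Gapdh, Pgk1 and Pdk2. Ldha, which encodes the A subunit of lactate dehydrogenase, alone took between 30.7% and 44.1% of the reads of all 36 genes. The next levels were those of Aldoa, Pdha1, Tkt, Hif1a, Pkm and Taldo1, each with a mean above 160 CPM in the labeled libraries, and these neighbours overlapped in their spread. The genes below them ran down to a few reads per library.

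**Figure D1:**
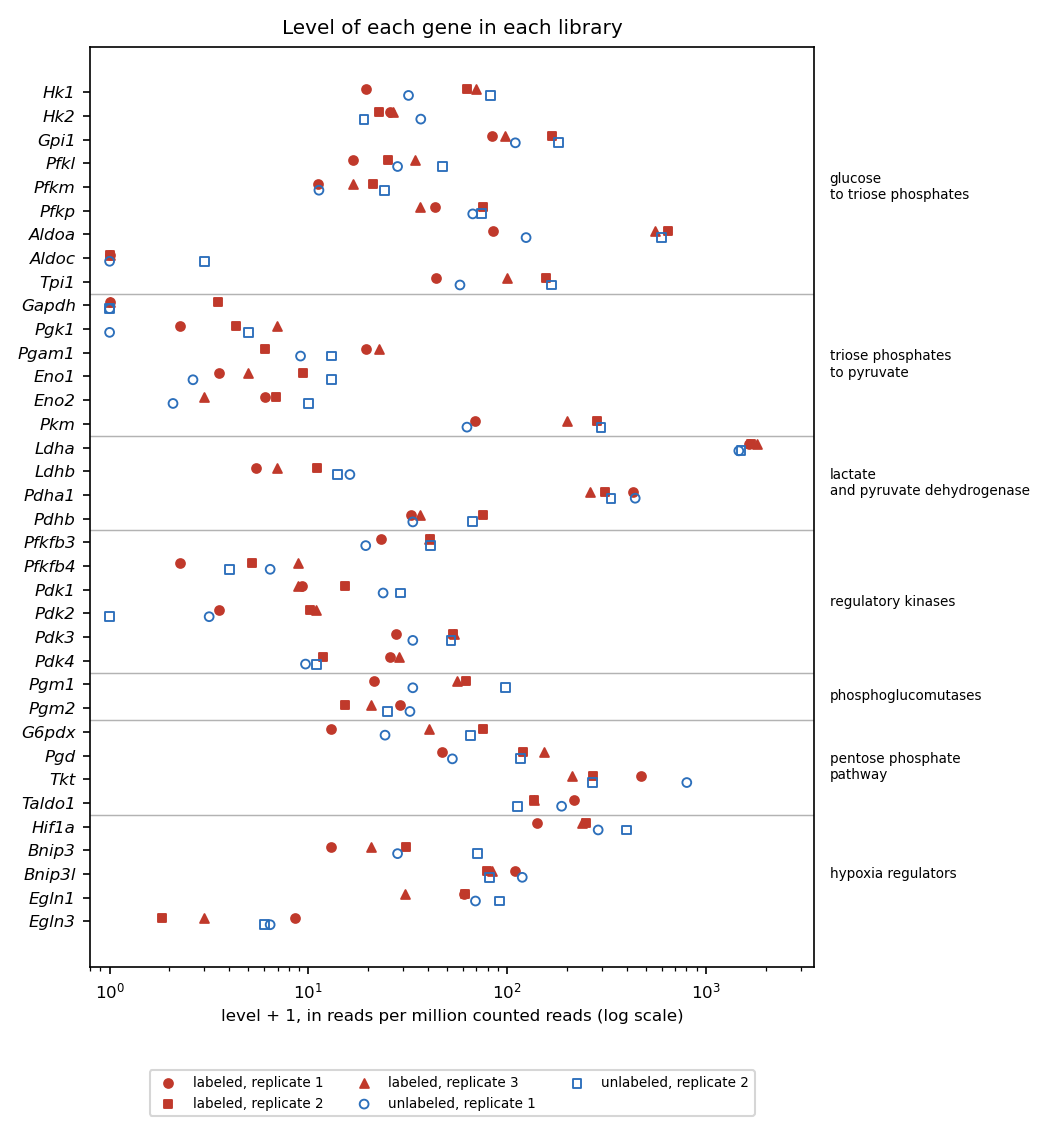
Level of each of the 36 genes in each library, in CPM plus 1 on a log axis, with the genes grouped by role; red marks are the 3 labeled libraries and open blue marks the 2 unlabeled libraries. Ldha lies to the right of every other gene with its 5 libraries close together, whereas Gapdh, Pgk1 and Eno1 lie at the left edge and Aldoa and Pkm are low in the replicate 1 libraries.

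The steps from glucose to the triose phosphates were carried by transcripts of moderate abundance. Hk1, a mitochondrion-bound hexokinase, had levels of 18.4, 61.9 and 69.2 CPM in labeled replicates 1, 2 and 3 and of 30.9 and 81.3 CPM in unlabeled replicates 1 and 2. Hk2, the insulin-responsive hexokinase, had 24.8, 21.8 and 25.7 CPM with and 35.8 and 18.1 CPM without S4U. The groups overlapped for both, and Hk1 was low in the libraries numbered 1, which Hk2 was not. Gpi1, glucose-6-phosphate isomerase, had 83.1, 166.5 and 96.8 CPM in the labeled and 109 and 181 CPM in the unlabeled libraries. The phosphofructokinase isoforms, which catalyse the committed step, stood in the order Pfkp (50.9 ± 20.7 CPM, SD, n = 3 labeled libraries), Pfkl (24.6 ± 8.87) and Pfkm (15.4 ± 4.98). This order held in each of the 5 libraries, although the ranges over libraries overlapped between neighbours in it.

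Aldoa, the main aldolase of most tissues, had 84.4, 642 and 557 CPM in labeled replicates 1, 2 and 3 and 124 and 599 CPM in unlabeled replicates 1 and 2. It was thus several times lower in the libraries numbered 1 of both groups, and the groups overlapped. Aldoc, the brain aldolase, had 2 reads in unlabeled replicate 2 and none in the other 4 libraries, where a count of 0 allows up to 1.63 to 5.93 CPM by counting error alone. Tpi1, triose-phosphate isomerase, had 43.2, 156 and 98.8 CPM in the labeled and 57.0 and 166 CPM in the unlabeled libraries, again lowest in those numbered 1.

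The steps from the triose phosphates to pyruvate gave hardly any reads apart from the last. Gapdh, glyceraldehyde-3-phosphate dehydrogenase and a common reference gene, had 3 reads in labeled replicate 2 and none in any other library. Pgk1, phosphoglycerate kinase, had 2, 4 and 3 reads in the labeled and 0 and 4 in the unlabeled libraries. Eno1, the ubiquitous enolase, had 4, 10 and 2 reads with and 3 and 12 reads without S4U, and Pgam1, phosphoglycerate mutase, 29, 6 and 11 reads with and 15 and 12 without. The neuronal enolase Eno2 was no higher, at 4.30 ± 2.05 CPM in the labeled libraries. Pkm, pyruvate kinase, had 67.9, 281 and 199.6 CPM in the labeled and 61.9 and 296 CPM in the unlabeled libraries and was the one gene of these 6 above 25 CPM in any library. The libraries numbered 1 were the lowest of their group for Pkm.

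In the up to 300 bases searched at their 3′ ends, the Gapdh, Pgk1, Pgam1 and Eno1 intervals consist almost wholly of sequence found elsewhere in the genome. Of the 30-base stretches in the last 300 bases of each interval, 100%, 100%, 98.2% and 90.8% occurred more than once in GRCm39. The median stretch of the Gapdh interval occurred 64 times and that of the Pgk1 interval 4 times. The tables count no read that mapped to several places (the column for such reads is 0 throughout), and a part of this in the low values was not tested. The most repeated stretch of each of these intervals, and that of Ldha for comparison, is shown on the transcript strand with the T positions, at which a conversion can be read, in capitals.
Gapdh, chr6:125138831-125138860, minus strand, 111 copies in GRCm39: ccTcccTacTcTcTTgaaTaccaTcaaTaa
Eno1, chr4:150333175-150333204, plus strand, 12 copies: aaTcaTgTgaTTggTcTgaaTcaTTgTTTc
Pgam1, chr19:41906887-41906916, plus strand, 8 copies: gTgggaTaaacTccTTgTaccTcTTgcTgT
Pgk1, chrX:105247068-105247097, plus strand, 5 copies: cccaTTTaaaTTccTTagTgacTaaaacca
Ldha, chr7:46504981-46505010, plus strand, 7 copies: aTgTaagaTcTgcaTaTggaTgaTggaacc

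Among all genes, 948 (4.72%) had at least 90% of these stretches repeated, with a median level of 0 CPM, and 12.3% of them had enough reads to be tested. Of the 14090 genes with no repeated stretch, 50.01% did, with a median level of 6.57 CPM. The 4 enzymes with at least 90% repeated had mean labeled levels of at most 15.1 CPM. Between 50% and 90%, 1093 genes had a median level of 1.89 CPM, and Pkm (53.1% repeated), Ldhb (55.4%) and Bnip3 (69.0%) fell in this range. Ldha, with 42.4% repeated, nevertheless had the highest level. Repeated sequence and low level did not always go together, since Aldoc and Egln3 had no repeated stretch and Eno2 had 18.8%.

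**Figure D2:**
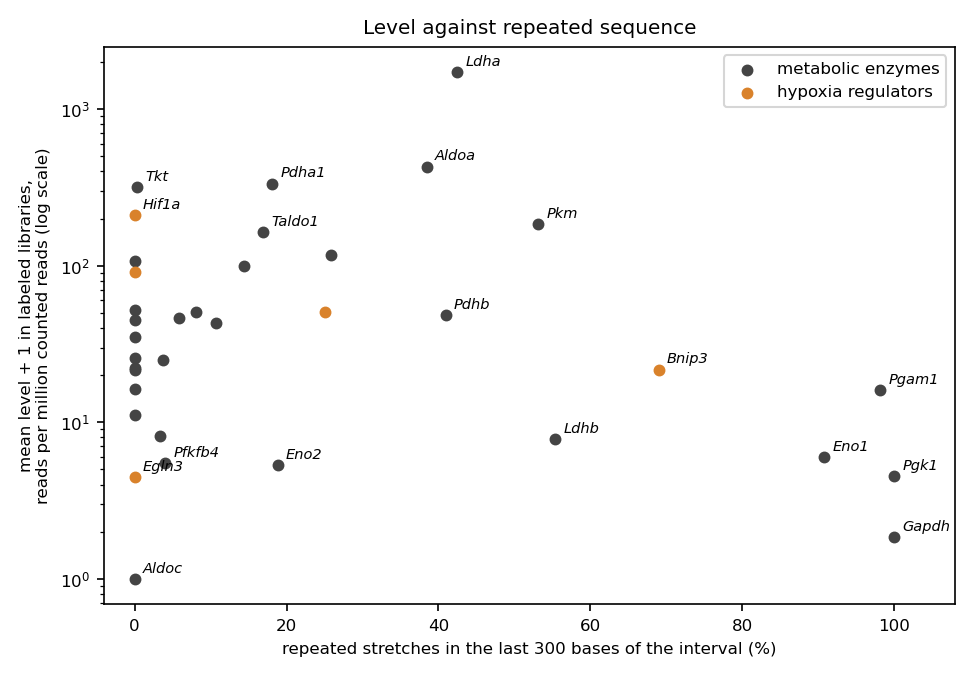
Mean level plus 1 in the 3 labeled libraries on a log axis against the percentage of 30-base stretches in the last 300 bases of the interval that occur more than once in GRCm39, one point per gene. Gapdh, Pgk1, Eno1 and Pgam1 lie at the lower right with at least 90% repeated, Ldha lies at the top with 42.4%, and Aldoc and Egln3 are low with none.

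At the branch of pyruvate, the transcript for lactate formation had the highest and steadiest counted level of all 36. The levels leave out reads that mapped to several places, so the transcripts of Gapdh, Pgk1, Pgam1 and Eno1 were not ranked against it. Ldha had 1650, 1691 and 1810 CPM in labeled replicates 1, 2 and 3 and 1466 and 1504 CPM in the unlabeled libraries, above 99.6% of the 9807 genes tested for reads. The labeled libraries were all above both unlabeled ones, with a log2 fold change of 0.29 that did not pass the test (SE 0.23, edgeR adjusted p = 1.00). Ldhb, the B subunit, had 4.44, 10.04 and 5.93 CPM with and 15.2 and 13.1 CPM without S4U, so every labeled library was below both unlabeled ones. Pdha1, the catalytic E1 alpha subunit of pyruvate dehydrogenase, had 430, 310 and 261 CPM with and 441 and 332 CPM without S4U. Pdhb, its E1 beta partner, had 31.7, 74.5 and 35.6 CPM with and 32.6 and 66.3 CPM without S4U. Pdha1 exceeded Pdhb in every library although the proteins form one heterotetramer, and 41.0% of the stretches of the Pdhb interval were repeated against 18.1% for Pdha1.

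The regulatory kinases ranged from a few reads to levels near the median of tested genes. Pfkfb3, which makes the phosphofructokinase activator fructose 2,6-bisphosphate, had 34.0 ± 10.2 CPM in the labeled libraries, and Pfkfb4 had 4.45 ± 3.33 CPM. Among the pyruvate dehydrogenase kinases, Pdk3 had the highest level, at 44.2 ± 15.2 CPM, but its interval of 9908 bases lies mostly outside annotated exons, with 10.6% of it exonic. Pdk1, a known HIF target, had 8.25, 14.2 and 7.90 CPM in the labeled and 22.8 and 28.1 CPM in the unlabeled libraries, and all labeled libraries were below both unlabeled ones. Pdk4, the starvation- and glucocorticoid-responsive kinase, had 24.8, 10.9 and 27.7 CPM with and 8.68 and 10.04 CPM without S4U, all labeled libraries above both unlabeled ones. Pdk2 had 4, 11 and 5 reads with and 4 and 0 reads without S4U, too few to place the groups apart.

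Pgm1 and Pgm2 are grouped here as phosphoglucomutases. The enzyme of Pgm1 interconverts glucose 1-phosphate and glucose 6-phosphate and so joins glycogen to glycolysis. Pgm1 had 20.3, 61.1 and 55.3 CPM with and 32.6 and 97.4 CPM without S4U, and Pgm2 had 20.6 ± 6.89 CPM in the labeled libraries. In the pentose phosphate pathway the reversible arm is run by transketolase and transaldolase and the oxidative arm by dehydrogenases. Tkt, transketolase, had 470, 270 and 211 CPM in the labeled and 802 and 269 CPM in the unlabeled libraries, and Taldo1, transaldolase, 216, 136 and 136 CPM with and 187 and 112 CPM without S4U. Both were highest in the library numbered 1 of each group. G6pdx, glucose-6-phosphate dehydrogenase and the entry to the oxidative arm, had 12.1, 74.5 and 39.5 CPM with and 23.3 and 64.3 CPM without S4U. Pgd, 6-phosphogluconate dehydrogenase, had 46.3, 120 and 152 CPM with and 52.1 and 116 CPM without S4U. Tkt exceeded G6pdx and Pgd in every library, whereas Taldo1 exceeded Pgd in labeled replicates 1 and 2 and unlabeled replicate 1 and lay below it in the other 2 libraries.

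Among the hypoxia regulators, Hif1a had the highest level. It had 140, 249 and 237 CPM in labeled replicates 1, 2 and 3 and 286.5 and 396.5 CPM in unlabeled replicates 1 and 2, so that every labeled library lay below both unlabeled ones. Bnip3l and Bnip3 encode mitophagy receptors of the outer mitochondrial membrane and are known HIF targets. Bnip3l had 109, 78.7 and 83.0 CPM with and 118 and 80.3 CPM without S4U, whereas Bnip3 had 12.1, 30.1 and 19.8 CPM with and 27.1 and 70.3 CPM without. Egln1 and Egln3 encode the prolyl hydroxylases PHD2 and PHD3. Egln1 had 59.6, 60.3 and 29.6 CPM in the labeled and 68.4 and 90.4 CPM in the unlabeled libraries, again without overlap. Egln3, itself inducible by HIF, had 12, 1 and 1 reads with and 10 and 5 reads without S4U. The order Hif1a, Bnip3l, Egln1, Bnip3, Egln3 held by the mean of the labeled libraries, and in each library Hif1a was above the other 4.

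The median level of the 5 hypoxia regulators was 59.6, 60.3 and 29.6 CPM in the labeled libraries (49.9 ± 17.5, SD, n = 3), and that of the 31 enzymes 22.2, 40.2 and 35.6 CPM (32.7 ± 9.33). The regulators were above the enzymes in labeled replicates 1 and 2 and below them in labeled replicate 3, so the order of the medians was not the same in all libraries. In the unlabeled libraries the medians were 68.4 and 80.3 CPM for the regulators and 30.9 and 46.2 CPM for the enzymes. By summed level the enzymes led, with 3411 to 4365 CPM in the 5 libraries against 329 to 642 CPM, with Ldha as the largest single part.

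Labeling was read in nearly every gene that could be read. Of the 32 genes with a covered T in every library, 31 had a higher T>C rate in the labeled libraries at an unadjusted p below 0.05 in the beta-binomial test. Across all genes with 1 interval each, 95.2% of 11179 passed the same test, so the count for these genes is close to the background. Every labeled library lay above both unlabeled ones in 30 of the 32, against 90.4% of all genes. The gene that did not pass was Pfkfb4 (p = 0.210, beta-binomial model over all intervals), for which 3 conversions in 102 covered T positions were seen in labeled replicate 2 and none in 57 and 89 positions in labeled replicates 1 and 3. In 14 of the 32 no conversion was seen in either unlabeled library.

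The well covered genes differed in their T>C rates, with Pdha1 and Pkm at the ends. For 8 of the 36, each library covered 1000 or more T positions, and among the 2107 genes covered as deeply the median rate was 0.0388, with quartiles of 0.0343 and 0.0422. Pdha1 had the highest rate of the 8, with 0.0446, 0.0470 and 0.0430 in labeled replicates 1, 2 and 3 and 0.000531 and 0.000272 in the unlabeled libraries, at percentile 88.7 of those 2107 genes. Ldha had 0.0391, 0.0408 and 0.0445 with and 0.000211 and 0.000208 without S4U, at percentile 70.1. Pkm had the lowest, with 0.0226, 0.0340 and 0.0286 with S4U and no conversion in 1477 and 5220 covered T positions without it, at percentile 14.1. Every labeled library of Pdha1 was above every labeled library of Pkm, and neither overlapped its unlabeled libraries.

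Of the other 5 deeply covered genes, Pgd (0.0411 ± 0.00438, SD, n = 3), Taldo1 (0.0408 ± 0.00629) and Hif1a (0.0407 ± 0.000566) lay above the median of deeply covered genes, Tkt (0.0388 ± 0.00378) at it and Aldoa (0.0381 ± 0.00336) below it. Their spreads between labeled libraries overlapped, and they could not be put in an order. Hif1a had 0.0400, 0.0410 and 0.0410 in the labeled libraries, the narrowest spread of the 8. The unlabeled libraries differed most for Tkt, where 53 conversions in 19983 covered T positions gave 0.00265 (95% Wilson interval 0.00203 to 0.00347) in replicate 1 and 3 in 3888 gave 0.000772 (0.000262 to 0.00227) in replicate 2. The rate of Tkt in unlabeled replicate 1 was thus above the 0.00111 of that library as a whole, and still far below the 0.0365 to 0.0432 of its labeled libraries. Such intervals and limits cover counting error only.

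In glycolysis, the enzymes at the low end of the T>C rate besides Pkm were Pfkl (0.0285 ± 0.00298), Gpi1 (0.0285 ± 0.00273), Tpi1 (0.0306 ± 0.00894) and Hk1 (0.0312 ± 0.00207). Pfkl, Gpi1 and Hk1 lay below the lower quartile of deeply covered genes in all 3 labeled libraries. At the high end were Pfkm (0.0533 ± 0.00684) and Hk2 (0.0488 ± 0.0125). Hk2 was above Hk1 and Pfkm above Pfkl in all 3 labeled libraries, while Pfkp (0.0392 ± 0.00779) lay between Pfkm and Pfkl. The isoforms Ldha and Ldhb, and Eno1 and Eno2, kept no such order. These rates rest on fewer T positions, between 153 and 435 for Pfkm and between 237 and 423 for Pfkl in the labeled libraries, and no test between genes was run. Ldhb, Eno1, Eno2, Pgam1, Pgm2, Pfkfb3 and Pfkfb4 differed too much between labeled libraries (SD of at least 0.0146) to be placed.

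**Figure D3:**
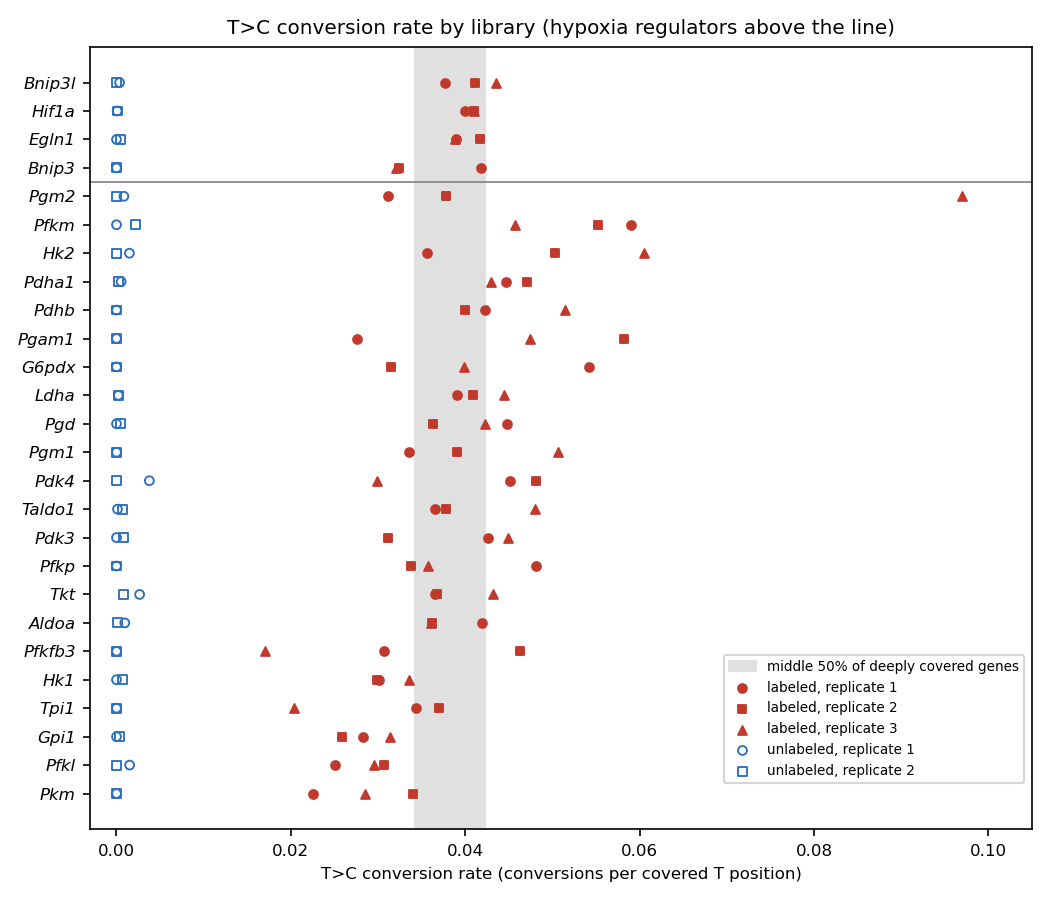
T>C conversion rate in each library for the 26 genes whose T positions were covered 100 or more times in each library, ordered by their mean in the labeled libraries within each class, with the middle 50% of deeply covered genes (0.0343 to 0.0422) as a grey band. Filled red marks (labeled) and open blue marks (unlabeled) do not overlap for any gene shown, Hif1a has the tightest labeled marks, and Pgm2 and Pfkfb3 are spread widely.

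The hypoxia regulators and the enzymes did not differ in T>C rate beyond the spread between libraries. The median rate of the 5 regulators was 0.0390, 0.0410 and 0.0410 in labeled replicates 1, 2 and 3 (0.0403 ± 0.00118, SD, n = 3). The median rate of the 27 enzymes with a covered T in every library was 0.0365, 0.0370 and 0.0423 (0.0386 ± 0.00321). The regulators were higher in labeled replicates 1 and 2, by 0.00244 and 0.00394, and lower in replicate 3, with a difference of -0.00127. The mean difference of 0.00171 was smaller than its SD of 0.00269. Singly, Bnip3l (0.0408 ± 0.00292), Hif1a (0.0407 ± 0.000566) and Egln1 (0.0398 ± 0.00158) were alike, Bnip3 was lower by its mean (0.0354 ± 0.00550) with an overlapping range, and Egln3 (0.0446 ± 0.0281) rested on 13 to 189 covered T positions. By role of the enzymes, the median rate per labeled library was 0.0314 ± 0.000831 from the triose phosphates to pyruvate, where 3 of the 4 covered genes could not be placed singly, and 0.0349 ± 0.000210 from glucose to the triose phosphates. It was 0.0391 ± 0.00802 for the regulatory kinases, 0.0400 ± 0.00317 in the pentose phosphate pathway, 0.0442 ± 0.00365 at lactate and pyruvate dehydrogenase and 0.0482 ± 0.0224 for the phosphoglucomutases, and the roles were not put in an order.

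A TTATTTATT nonamer, the core of AU-rich elements that are known to recruit mRNA decay factors, was found on the transcript strand of 7 of the 36 intervals (19.4%), against 8.56% of the intervals of all 11177 covered genes searched, whatever their length. They were Hif1a and Egln3 among the hypoxia regulators, and Pfkfb3, Pfkm, Hk2, Eno2 and Pdk3 among the enzymes. The Pdk3 interval is only 10.6% exonic, and the 36 were counted whether covered or not. One match each is printed for the regulators and for the 3 enzymes with a match in a fully or almost fully exonic interval and at least 100 covered T positions, with the nonamer in capitals and 30 bases in all.
Hif1a, GRCm39 chr12:73992779-73992808, plus strand: atgcacctttTTATTTATTtatttttggtg
Egln3, chr12:54225925-54225954, minus strand: tgtcatgtccTTATTTATTttgtttattgt
Pfkfb3, chr2:11476854-11476883, minus strand: gatgtgctatTTATTTATTtaatatgtata
Pfkm, chr15:98030220-98030249, plus strand: aaaataagctTTATTTATTtctttgtgata
Hk2, chr6:82702881-82702910, minus strand: tttatacgagTTATTTATTccagactgttt
Hif1a holds 2 overlapping matches and Eno2 10 in one tandem run. Among covered intervals of like length, a match was present in 9.08% for Hif1a, 7.62% for Egln3, 15.0% for Pfkfb3, 2.21% for Pfkm, 11.6% for Hk2, 6.54% for Eno2 and 41.4% for Pdk3. Over all 7 genes, the mean T>C rates ran from 0.0209 (Eno2) to 0.0533 (Pfkm). Between them lay Pfkfb3 (0.0313), Pdk3 (0.0396), Hif1a (0.0407), Egln3 (0.0446) and Hk2 (0.0488). Eno2 and Pfkfb3 differed too much between labeled libraries to be placed, and Egln3 rested on 13 to 189 covered T positions. Any link of the nonamer with the rate was not tested. A match is a description of the sequence and not of its use in CF.

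In the promoter windows of RefSeq genes on GRCm38.p6, from 250 bases before to 50 bases after a start, the core of the HIF-binding element was counted as ACGTG or GCGTG on either strand. The table held 35 of the 36 genes, Bnip3l being the one not matched. At least 1 core was present for 32 of the 35 (91.4%), namely 28 of 31 enzymes and 4 of 4 regulators, against 69.5% of the tested genes in the table and 46.7% of all its genes. No core was found in the windows of Gpi1, Tpi1 and Eno2, which says only that these letters are not there. For each gene the highest count over its windows was taken. The sets were not matched for the number of windows or for base composition, so the shares are a description. Binding was not measured.

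In the fit that took the 5 libraries as unpaired, no gene of the 36 passed the test of reads between labeled and unlabeled CF after adjustment over all genes. Of the 36, 30 had enough reads for edgeR's quasi-likelihood test, and 0 had a Benjamini-Hochberg adjusted p below 0.05 in either direction, where the background was 0% of 9807 genes in either direction. At an unadjusted p below 0.05, 1 was lower (Pdk1) and 0 were higher, against 3.12% lower and 2.84% higher of all genes. DESeq2 also called 0 of the 36. With the replicate number as a block, edgeR called 5 of the 36 lower, namely Bnip3, Hif1a, Pdk1, Pfkl and Pgm1, and 0 higher. Of all genes, the blocked fit called 618 lower and 528 higher. It leaves 1 residual degree of freedom, and no label says that a number marks one preparation. The labeled libraries lay wholly above the unlabeled ones for 3 genes (Ldha, Pdk2, Pdk4), against 8.2% of all genes, and wholly below for 4 (Ldhb, Pdk1, Hif1a, Egln1), against 13.1%. As shares of 30 genes these counts are near the background, and 23 genes overlapped. Aldoc, Gapdh, Pgk1, Eno2, Pfkfb4 and Egln3 had too few reads to be tested.

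Pdk1 gave the lowest p, with a log2 fold change of -1.22 (SE 0.43, edgeR adjusted p = 0.741). Among the hypoxia regulators, the log2 fold change was -1.16 for Bnip3 (SE 0.56, edgeR adjusted p = 0.8999), -0.64 for Hif1a (SE 0.34, adjusted p = 0.939), -0.57 for Egln1 (SE 0.36, adjusted p = 0.984) and -0.06 for Bnip3l (SE 0.29, adjusted p = 1.00). The 4 fitted values had a median of -0.60, and none passed the test in this unpaired fit. With the replicate number as a block, Bnip3 (-1.15, edgeR adjusted p = 0.00083) and Hif1a (-0.80, edgeR adjusted p = 1.5e-05) passed. Egln1 (-0.32) and Bnip3l (-0.02) did not. The values of the unpaired fit moved with single libraries. Without unlabeled replicate 2 the value was -0.28 for Bnip3, -0.33 for Hif1a and -0.31 for Egln1, and without labeled replicate 1 it was -0.40 for Hif1a. Egln1 was at -0.34 without labeled replicate 3, Bnip3 at -1.75 without unlabeled replicate 1, and Bnip3l turned to 0.04 without labeled replicate 2 and to 0.20 without unlabeled replicate 1. Their summed level with Egln3 was 329, 419 and 371.5 CPM in the labeled and 506 and 642 CPM in the unlabeled libraries, where the labeled libraries did not reach the unlabeled ones. In bulk RNA, fewer transcripts per cell and fewer cells carrying them cannot be told apart.

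Of the 26 enzymes tested, 12 had a fitted log2 fold change above 0 and 14 below 0, with a median of -0.07 beside 0.02 for all genes tested. The largest rises were fitted for Pdk2 (2.34, SE 1.07, edgeR adjusted p = 0.870), on 24 reads in all, Pdk4 (1.22, SE 0.53, adjusted p = 0.856) and Pgam1 (0.62, SE 0.67, adjusted p = 1.00). After Pdk1, the largest falls were fitted for Ldhb (-0.97, SE 0.51, edgeR adjusted p = 0.927) and Tkt (-0.66, SE 0.49, adjusted p = 0.996). The value for Tkt rests on unlabeled replicate 1 and was 0.26 without it, and it was -1.22 without unlabeled replicate 2 and -1.04 without labeled replicate 1. Leaving out 1 library moved Pgam1 to between 0.28 and 1.07, and without unlabeled replicate 1 the other unlabeled library has no read of Pdk2, so that no fold is given. Fibroblast markers summed to 38500, 38830 and 42160 CPM in the labeled and 31190 and 34830 CPM in the unlabeled libraries, a difference carried by Col1a1 and Col1a2. Pdgfra and Ddr2 of the same list went the other way, with every labeled library below both unlabeled ones, and Acta2 was higher in labeled replicates 2 and 3 than in the unlabeled libraries. A part of these differences in the values of the regulators was not tested.

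**Figure D4:**
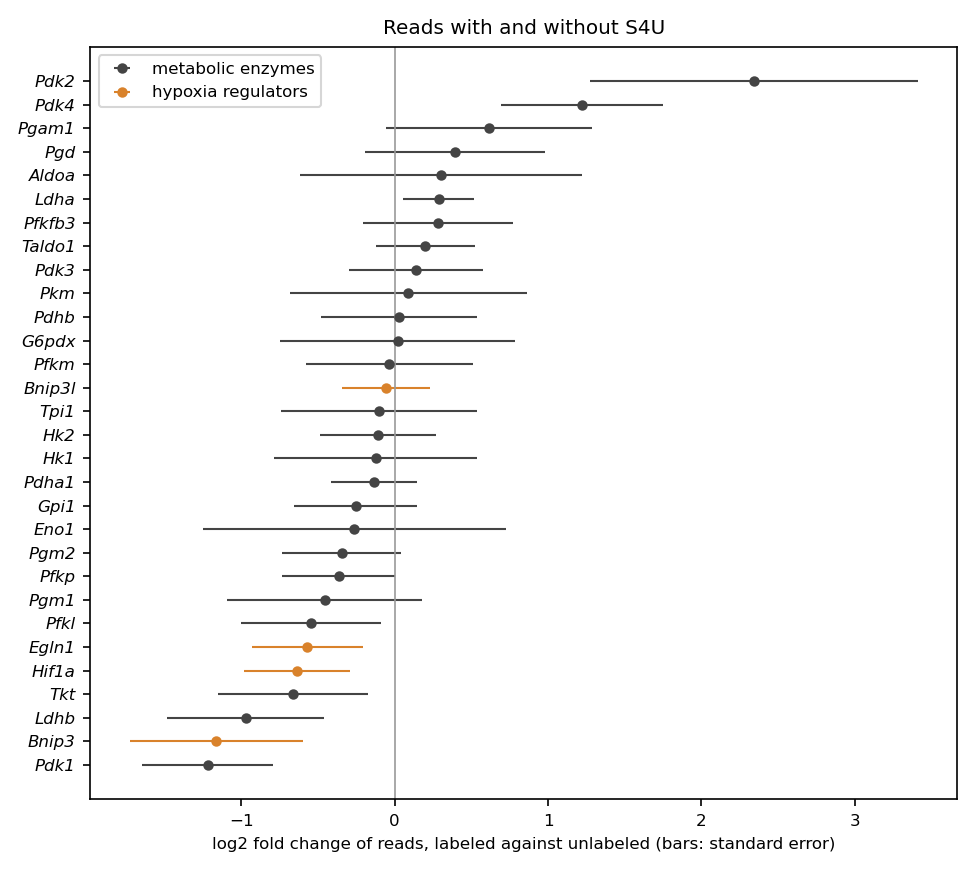
Fitted log2 fold change of reads, labeled against unlabeled CF, with a standard error derived from edgeR's F statistic for the 30 tested genes, the hypoxia regulators in orange. The 4 regulators lie at or left of 0, from -1.16 (Bnip3) to -0.06 (Bnip3l), and no gene passed an adjusted p of 0.05 in this unpaired fit.

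The larger differences among these genes were between replicates of one group. In 20 of the 30 tested genes the level was lower in replicate 1 than in replicate 2 in both groups, against 34.8% of the 9807 genes, and in 6 it was higher in replicate 1 in both, against 45.2%. The ratio of replicate 2 to replicate 1 was 7.61 in the labeled and 4.85 in the unlabeled libraries for Aldoa, 4.14 and 4.79 for Pkm, and 6.18 and 2.75 for G6pdx. It was 3.61 and 2.91 for Tpi1, 3.37 and 2.63 for Hk1, 3.01 and 2.99 for Pgm1 and 2.50 and 2.59 for Bnip3. Hk1, Gpi1, Pfkl, Pfkm, Pfkp, Aldoa, Tpi1, Eno1, Pkm, G6pdx and Pgd thus shared this direction in both groups, whereas Hk2 was higher in replicate 1 of both groups and Pgam1 went opposite ways in them. By ratio, labeled replicate 3 was closer to labeled replicate 2 for Hk1, Pfkl, Pfkm, Aldoa, Tpi1, Pkm, G6pdx and Pgd, and closer to labeled replicate 1 for Gpi1, Pfkp and Eno1.

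Tkt (0.575 and 0.336), Taldo1 (0.629 and 0.6004), Pdha1 (0.721 and 0.754) and Bnip3l (0.721 and 0.679) went the other way. Ldha, counted among the 20, hardly moved, at 1.03 in both groups. Other genes differed with the same libraries. The leukocyte markers summed to 54.6 and 59.7 CPM in the replicate 1 libraries and to 99.6, 77.1 and 104 CPM in the others, the endothelial markers to 93.9 and 134 against 186, 105 and 200 CPM, and the cardiomyocyte markers to 0.635 and 2.17 against 7.53, 5.93 and 8.03 CPM. Acta2 was at 539 and 353 CPM in the replicate 1 libraries and at 1411, 1618 and 740 CPM in the others. The part of these cells or of the preparation in the enzyme levels was not tested, and with 1 such library per group no test across libraries was made.

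**Figure D5:**
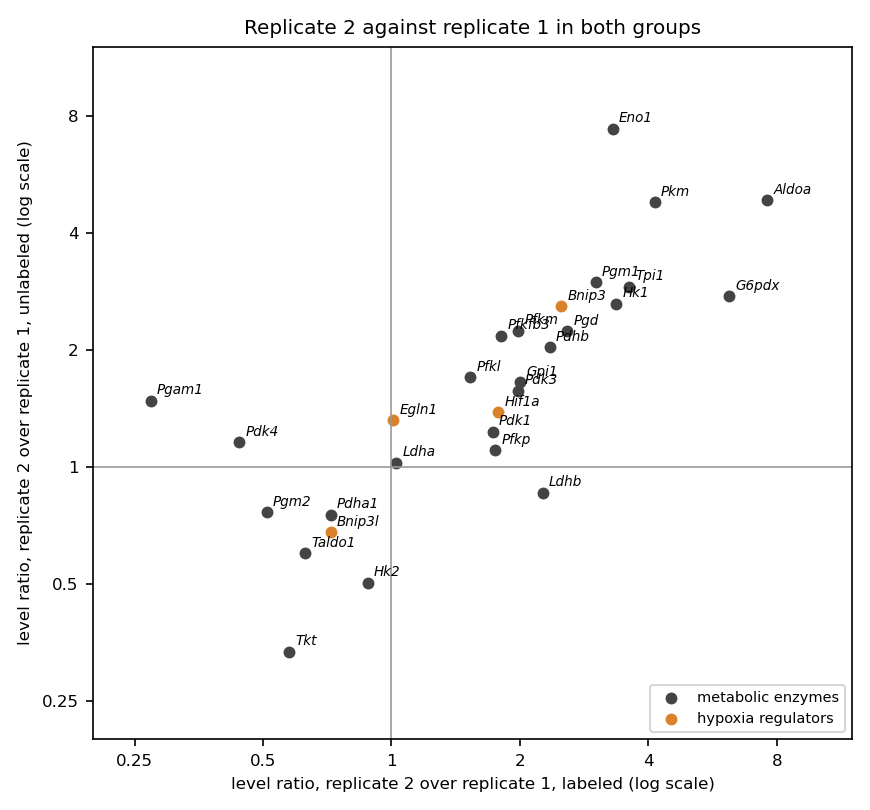
Ratio of the level in replicate 2 to that in replicate 1 in the labeled libraries (horizontal) and in the unlabeled libraries (vertical), both on log axes, for the genes tested for reads that had reads in these 4 libraries. 20 genes lie at the upper right, among them Aldoa, Pkm and G6pdx, Ldha lies at 1.03 in both, and Tkt, Taldo1, Pdha1 and Bnip3l lie at the lower left.

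Other genes of these pathways did not pass the unpaired test of reads either. Of 49 further transporters, isoforms, enzymes and hypoxia genes, 34 were tested for reads, and edgeR called 0 higher and 0 lower at an adjusted p below 0.05, and at an unadjusted p below 0.05 it gave 0 and 1. The one was Epas1, which encodes HIF-2α, at 313, 336 and 314 CPM with and 484 and 633 CPM without S4U (log2 fold change -0.73, SE 0.25, edgeR adjusted p = 0.731). Adm, adrenomedullin and a known HIF target, had 1180, 1087 and 1397 CPM with and 1745 and 1496 CPM without S4U, the highest level of the 49. The median log2 fold change of the 34 was -0.11, from -1.41 to 0.34. Slc2a1, the basal glucose transporter, had 96.4, 88.7 and 71.1 CPM with and 80.3 and 96.4 CPM without S4U. Hkdc1, Pklr, Fbp2, Hif3a and Car9 had no read in any library. Of the 41 with a covered T in every library, 34 passed the test of the T>C rate, against 95.2% of all genes.

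The intervals of 31 of the 36 genes lie wholly within an annotated last exon and its UTR in GRCm39. Those of Gpi1, Tkt, Taldo1 and Pfkfb3 reach a few bases past it, and that of Pdk3 far past it. The Aldoa interval (chr7:126394406-126394590, minus strand, 185 bases) also overlaps Gm57854 on its own strand, so that their reads cannot be told apart. Genes on the other strand overlap 11 intervals, among them Gm39011 at Ldha (chr7:46504566-46505051, plus strand), Map3k15 at Pdha1 and Gm15283 at Hif1a (chr12:73992478-73994328, plus strand). Of the 36 genes, 20 had a single interval in the tables.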

How the data were processed

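The deposited tables give, per 3′ UTR interval and library, whole-number read counts, covered T positions and T>C conversions, none of them scaled. The conversion rate deposited by the authors is the fraction of covered T positions that were converted. The deposited CPM uses a denominator per library that exceeds the counted reads. The authors extracted identifiers with umi-tools, mapped reads to mm39 with SLAM-DUNK 0.4.3 and removed duplicates with umi-tools. Other deposited columns were not used.

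Each table held 97442 rows, of which 40428 were distinct intervals, and repeated rows were dropped. Each gene kept the interval of highest labeled mean CPM (on a tie, the longer), and levels were recomputed relative to counted reads. The T content of 40380 of 40380 intervals matched GRCm39, and coordinates count from 1.

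T>C rates were compared with a two-sided beta-binomial likelihood-ratio test wherever each library covered at least 1 T, at an unadjusted p below 0.05 as in the study. Reads were compared with edgeR 4.0.16 (quasi-likelihood test, TMM, filterByExpr, Benjamini-Hochberg adjustment over all genes). The SE of a log2 fold change was derived as its absolute value over the square root of the F statistic of that test. Both tests were checked on simulated data. The simulated libraries shared no differences by replicate number, so the check does not cover such differences. Between 506045 and 1843033 reads per library were counted. Chi-square over its degrees of freedom was 2.04 to 16.6 between libraries of one group, more than sampling noise, so none was taken for a copy. A limit from a count of 0 is 3 counts. Samples were grouped by the submitters' labels.

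Alternatives were DESeq2 1.42.0, limma 3.58.1 on the log odds (pseudocount 0.5), other size factors, filters and coverage minimums, summed intervals, deposited CPM, the share of reads with a conversion, the replicate number as a block, and each library left out. The software was Python 3.11.15 with numba 0.67.0, scipy 1.17.1, numpy 2.4.6 and pandas 2.3.3, matplotlib 3.10.9 for plots, and R 4.3.3. The genes and lists were chosen with earlier results of these data known. Every gene of the list may be named with its level and T>C rate. Log2 fold changes are given for the hypoxia regulators, for enzymes with an unadjusted p below 0.05 and for the 3 largest rises and falls of the enzymes. The value given for Ldha and those for the genes of the further list were added after they were seen. Results for some genes of that list are not reported here.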

Additional observations from a re-analysis of the deposited data

How the results depend on the processing

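The direction and side of the threshold of most values held under the alternatives. With conversions summed over intervals or the unlabeled rate subtracted, the T>C rates of single genes moved by less than the SD between labeled libraries. Of the recomputed log2 fold changes of single genes, 3 newly passed the threshold and 3 changed sign, the others keeping both. Depth limits the T>C results: with at least 1000 covered T positions, 3154 intervals and 8 of the 36 genes had a higher rate, since fewer could be tested. Leaving out 1 library at a time gave 17056 to 18632 intervals and 29 to 30 genes. The medians over labeled libraries then ran from 0.0368 to 0.0397 for the enzymes and from 0.0400 to 0.0410 for the hypoxia regulators, and their difference from 0.000585 to 0.00319. Median levels ran from 28.9 to 37.9 and from 44.6 to 60.0 CPM. As the share of reads with a conversion, the medians were 0.462 and 0.538 with a difference of 0.0760, a measure that also rises with the T positions per read. With the deposited CPM they were 2.52 and 4.67, from the larger denominator, and with reads summed over intervals, which counts overlapping ones repeatedly, the median of the regulators was 68.2 CPM.

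For reads of all genes, edgeR called 0 higher and 0 lower, and DESeq2 11 and 4. None of the 36 passed with any 1 library left out. The numbers 1 and 2 recur in both groups without a label that they mark one preparation. Deviations from each group mean had a correlation over 9807 genes of 0.784 for number 1 and 0.638 for number 2, and of 0.482 between labeled replicate 3 and unlabeled replicate 2. These are not separate agreements, since the deviations of 2 unlabeled libraries mirror each other and those of the labeled libraries sum to 0. With the replicate number as a block, which leaves 1 residual degree of freedom, edgeR called 528 genes higher and 618 lower, among them 5 of the 36, namely Bnip3 (log2 fold change -1.15), Hif1a (-0.80), Pdk1 (-1.16), Pfkl (-0.80) and Pgm1 (-0.63), with edgeR adjusted p from 1.5e-05 (Hif1a) to 0.0496 (Pgm1). For T>C rates, limma with the replicate block gave 18448 intervals and 32 genes. The log2 fold change turned positive for Bnip3l without labeled replicate 2 (0.04) and without unlabeled replicate 1 (0.20), and for Tkt without unlabeled replicate 1 (0.26). Over all libraries left out in turn, it ran from -0.27 to 0.20 for Bnip3l and from -1.22 to 0.26 for Tkt. The cause was not tested.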
